A study of Homo sapiens with 9 samples.

Results

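Mesendoderm made from the human embryonic stem cell line H9 was compared with the undifferentiated cells it came from, over all genes of 1 deposited expression table. The comparison used 6 of the 9 libraries of the series: 3 of hESC at day 0, grown on Matrigel in mTeSR1, and 3 of mesendoderm after 5 days of hBMP4 at 5 ng/ml in mTeSR1. The other 3 libraries were neuroectoderm, made over 5 days with NOGGIN at 200 nM, which binds BMPs, and SB431542 at 10 µM, which blocks the activin and Nodal receptors. They served here as a second reference, and the tests took their estimate of spread from all 9 libraries. Every library came from H9, which is 1 cell line from 1 embryo, so no other genetic background was sampled, and the labels do not say whether libraries of a group were separate cultures. The p-values therefore measure the spread between these libraries, which may be technical.

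BMP4 is a secreted ligand that binds type I and type II receptor kinases, which phosphorylate SMAD proteins. In the embryo BMP4 acts upstream of WNT3 and Nodal at the primitive streak, the site where epithelial epiblast cells leave their layer and become mesoderm and endoderm. The same ligand is known to push pluripotent cells towards amnion, the thin epithelium that faces the embryo, and towards trophoblast, the outer layer of the placenta. Many transcription factors are shared between these fates, so a list of markers of 1 fate also holds genes of others.

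Levels are RPKM (reads scaled to transcript length and library size), given per library or as mean ± SD over 3 libraries. Changes are mesendoderm minus hESC differences of log2(RPKM + 1) ± SE, a scale that understates changes of low genes. Each adjusted p is limma's with Benjamini-Hochberg adjustment over all 14473 genes tested, and a gene rose or fell where it was under 0.05. Genes were tested where the mean over all 9 libraries reached a minimum of 0.5 RPKM. A gene near 0 in hESC could pass that minimum through the group where it was high. Counts among tested members of any gene list are therefore partly set by it. Counts over all measured members without the minimum are given for the streak, lateral mesoderm, paraxial mesoderm, amnion, trophoblast, endoderm, surface ectoderm and neural lists. For every other list only counts among tested members are given. In a bulk library more cells of a type cannot be told apart from more RNA per cell.

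The 4 genes taken as markers of the label all rose, of which HAND1 also stands in the lateral mesoderm and amnion lists. T (brachyury), the T-box factor of the streak, was at 0.09, 0.11 and 0.18 RPKM in hESC and 23.2, 26.8 and 30.8 RPKM in mesendoderm. MIXL1, a homeobox factor of early mesendoderm, was at 0.03, 0.4 and 0.18 RPKM in hESC and 41.8, 86.8 and 76.2 RPKM in mesendoderm. EOMES, a T-box factor upstream of endoderm and mesoderm, was at 0.04, 0.1 and 0.05 RPKM in hESC and 20.8, 32.04 and 29.5 RPKM in mesendoderm. HAND1, a factor of lateral and extra-embryonic mesoderm, was at 0.07, 0.06 and 0.01 RPKM in hESC and 85.3, 41.9 and 79.1 RPKM in mesendoderm. None of the 4 overlapped between the groups, which held for 54.7% of all tested genes, and the smallest of their changes was 4.62 ± 0.11, for T. In neuroectoderm all 4 stayed under 0.1 RPKM on average, with T at 0.0367 ± 0.0289 RPKM and HAND1 at 0.0333 ± 0.0115 RPKM.

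The steps between low values corresponded to denominators of 36.2 to 69.25 M reads, at which 3 reads on a 1 kb transcript amount to 0.0433 to 0.0829 RPKM. Within groups libraries correlated with r = 0.933 to 0.992 across genes, which are not independent replicates. On the third principal component, which held 12.3% of the variance, hESC replicate 2, neuroectoderm replicate 1 and mesendoderm replicate 1 stood apart from the others of their groups. Small RNA genes made up 58.6%, 69.4% and 62.3% of the RPKM sum in hESC and 58.3%, 52.9% and 55.3% in mesendoderm. When small RNA was left out and the rest rescaled, the median change of all genes moved from -0.017 to -0.12, and the genes called turned from 2457 higher and 2620 lower to 1720 higher and 2787 lower. Rises below are therefore to be read against a median that lies within about that shift of 0, and a list's count is given with its range when single libraries, or the 3 that stood apart, were left out, where that moved it by over 1.5 times. Counts of 3 or fewer genes could move that far with a single library and are given as descriptions.

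Of the 14473 genes, 2457 rose (17.0%) and 2620 fell (18.1%), 35.1% in all. Every list count below is to be read against these shares. Large changes were mostly rises: 96 genes rose and 30 fell by at least 8-fold on the log2(RPKM + 1) scale. The 3 and 3 libraries did not overlap for 54.7% of the genes. The spread in the tests was shared with neuroectoderm, and when only the hESC and mesendoderm libraries were fitted 2967 genes rose and 3159 fell.

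The largest rise was that of WLS, the carrier that brings WNT proteins to the cell surface, which was at 1.06, 1.36 and 1.01 RPKM in hESC and 206, 155 and 194 RPKM in mesendoderm (6.43 ± 0.22, adjusted p = 1.76e-07). APLNR, the apelin receptor of early mesoderm, followed with 0.08, 0.16 and 0.24 RPKM in hESC and 166, 40.1 and 131 RPKM in mesendoderm (6.39 ± 0.43, adjusted p = 7.67e-06). Fibronectin (FN1), the matrix protein on which mesoderm migrates, went from 14.1 ± 0.436 to 1123 ± 64.7 RPKM and became one of the most abundant transcripts (6.21 ± 0.14). Every mesendoderm library stood far above every hESC library for these 3 genes. NTS, the precursor of the peptide neurotensin, went from 3.46 ± 0.464 to 311 ± 44.6 RPKM, and PLA2G2A, a secreted phospholipase, from 1.72 ± 0.304 to 153 ± 14.2 RPKM. HPGD, which degrades prostaglandins, went from 0.16 ± 0.0458 to 57.7 ± 3.52 RPKM, and EPAS1, the oxygen-sensing factor HIF-2 alpha, from 0.317 ± 0.0231 to 62.9 ± 18.7 RPKM. The other 8 of the 15 largest rises were HAND1, MIXL1, BMP4 itself, the Nodal and BMP antagonist CER1, the WNT target SP5, the matrix proteins POSTN and HAPLN1, and DIO3, which inactivates thyroid hormone (0.123 ± 0.0404 to 39.01 ± 9.53 RPKM).

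The largest falls included HES3, a repressor of the Hairy family, at 33.9, 21.5 and 28.8 RPKM in hESC and 0.18, 0.15 and 0 RPKM in mesendoderm (-4.69 ± 0.17, adjusted p = 2.55e-07), and the tryptophan-degrading enzyme IDO1, at 29.6, 30.2 and 33.2 RPKM in hESC and 0.32, 0.31 and 0.25 RPKM in mesendoderm (-4.63 ± 0.083, adjusted p = 1.07e-08). SOX2, shared by pluripotent and neural cells, was at 70.7, 51.3 and 67.8 RPKM in hESC and 1.25, 5.54 and 2.55 RPKM in mesendoderm (-4.09 ± 0.35, adjusted p = 2.85e-05), with mesendoderm replicate 2 the highest of its group and still below every hESC library. SFRP1, a secreted WNT inhibitor, fell from 195 ± 6.26 to 11.5 ± 2.33 RPKM. The neuronal pentraxin NPTX1 (-4.60 ± 0.11), the granule protein CHGA (-3.78 ± 0.19), the orphan receptor GPR176 (-3.73 ± 0.14), the forebrain factor FEZF1 (-3.70 ± 0.12), the deubiquitinase USP44 (-3.54 ± 0.26), LECT1 (-3.38 ± 0.17) and the ERBB inhibitor LRIG1 (-3.20 ± 0.16) fell as well. CUZD1 and FAM24B-CUZD1 share exons and are 1 observation, and SNAR-G2 has near-identical copies.

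**Figure D1:**
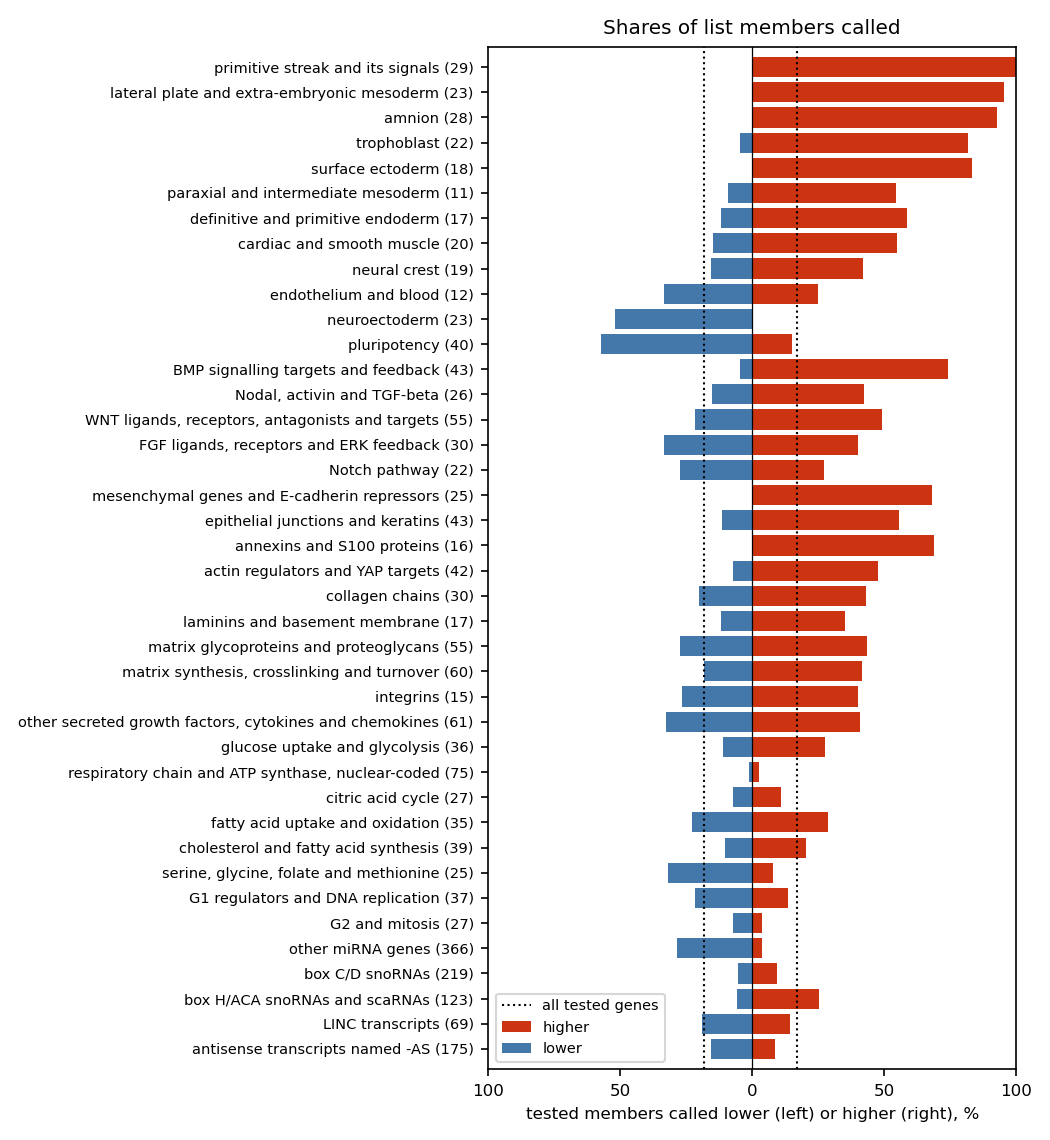
Share of tested members of each gene list called higher (right) or lower (left) in mesendoderm than in hESC, in %, with the number tested in brackets. Dotted lines mark the shares over all tested genes, 17.0% and 18.1%, and the streak, lateral mesoderm and amnion bars reach furthest to the right. The lists were chosen with earlier results of these data known.

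Streak genes rose as a group, in a list that, like all lists here, was chosen with earlier results of these data known. Its counts describe the list and are no test of a fate. All 29 measured members of the streak list passed the minimum and 29 rose (28 without the minimum), with a median of 3.23 against -0.017 over all genes. Their summed level went from 21.6 to 22.8 RPKM over the hESC libraries to 533 to 679 RPKM in mesendoderm. In neuroectoderm the sum was 146 to 215 RPKM, so it lay above hESC there too. Against neuroectoderm 26 of the 29 were higher and 2 lower, where 24.1% and 24.0% of all genes were (48.1% in either direction). Members cover several regions of the streak. The posterior factors CDX2 (0.02 ± 0.01 to 13.6 ± 6.89 RPKM), CDX1 (0.127 ± 0.159 to 12.5 ± 2.63 RPKM) and EVX1 (0.0867 ± 0.0513 to 9.32 ± 0.705 RPKM) rose, as did GSC, the factor of the anterior end, at a lower level (0.03 ± 0.03 to 2.27 ± 0.993 RPKM). MSGN1, a factor of presomitic mesoderm, was at 0, 0 and 0 RPKM in hESC and 15.4, 2.71 and 12.6 RPKM in mesendoderm, and LHX1 went from 0.153 ± 0.0681 to 9.24 ± 4.99 RPKM. MESP1, the first factor of the heart and head mesoderm, went from 0.0233 ± 0.0208 to 4.3 ± 1.72 RPKM (2.31 ± 0.22, adjusted p = 5.90e-05).

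Streak promoters were searched for 2 strings, CTTTGAT and CTTTGAA, that the WNT effectors TCF and LEF are known to bind, on both strands in the 250 bases before the start site. These strings were found in 5.94% of 35116 RefSeq promoters and in 6 of the 24 streak-list promoters with an entry (CDX2, DKK1, MIXL1, MSGN1, SP5 and T, which RefSeq calls TBXT). They were in 3 of 57 WNT-list promoters (5.26%) and 3 of 70 BMP-list promoters (4.29%). A match describes letters and is neither a shown binding site nor a cause of a rise. The 3 windows below belong to streak genes with a large rise, in RefSeq's build GRCh38.p14, 5′ to 3′ on the gene's strand, with matches in capitals. A match on the opposite strand reads ATCAAAG or TTCAAAG.
MIXL1, chr1:226223414-226223663, plus strand: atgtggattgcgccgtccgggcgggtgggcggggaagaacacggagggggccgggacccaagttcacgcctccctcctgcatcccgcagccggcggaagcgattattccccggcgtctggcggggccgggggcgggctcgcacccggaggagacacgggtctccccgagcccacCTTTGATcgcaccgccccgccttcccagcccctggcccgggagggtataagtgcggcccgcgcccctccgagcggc
SP5, chr2:170715087-170715336, plus strand: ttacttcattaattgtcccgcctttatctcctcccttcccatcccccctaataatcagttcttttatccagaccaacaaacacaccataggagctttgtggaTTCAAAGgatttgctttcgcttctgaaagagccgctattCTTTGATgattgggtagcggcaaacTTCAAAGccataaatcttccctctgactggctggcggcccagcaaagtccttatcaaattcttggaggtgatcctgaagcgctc
T (TBXT), chr6:166167852-166168101, minus strand: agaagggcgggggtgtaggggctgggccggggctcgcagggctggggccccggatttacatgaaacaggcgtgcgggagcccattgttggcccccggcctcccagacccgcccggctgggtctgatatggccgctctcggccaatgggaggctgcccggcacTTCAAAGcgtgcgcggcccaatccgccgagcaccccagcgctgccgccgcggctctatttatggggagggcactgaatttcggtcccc
SP5 holds 3 matches and the other two 1 each. SP5, itself a WNT target, was at 0.06, 0.06 and 0.04 RPKM in hESC and 29.6, 46.5 and 42.4 RPKM in mesendoderm (5.24 ± 0.25, adjusted p = 1.08e-06).

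Lateral plate and extra-embryonic mesoderm genes rose next to the streak genes. Of 35 measured members 23 passed the minimum, of which 22 rose and 0 fell (median 2.31). TBX3, a T-box factor, was at 0.02, 0.04 and 0.03 RPKM in hESC and 40.5, 16.3 and 31.9 RPKM in mesendoderm, and HAS2, which makes hyaluronan, at 1.21, 1.17 and 1.23 RPKM in hESC and 99.9, 34.99 and 82.2 RPKM in mesendoderm. The HOX cofactor MEIS1 went from 0.0933 ± 0.0351 to 7.38 ± 2.06 RPKM and CDH11, a cadherin of mesenchyme, from 1.92 ± 0.191 to 34.1 ± 21.5 RPKM. The zinc finger factors GATA6 (0.0933 ± 0.0306 to 4.82 ± 1.98 RPKM) and GATA4 (0.04 ± 0.03 to 3.72 ± 1.54 RPKM) rose to lower levels. FOXF1, which marks lateral plate mesoderm, was at 0.06, 0.05 and 0.03 RPKM in hESC and 5.97, 0.65 and 4.36 RPKM in mesendoderm (1.92 ± 0.44, adjusted p = 0.00891), so its rise was small in replicate 2. The receptors KDR (22.2 ± 1.27 to 83.4 ± 2.89 RPKM), PDGFRB (3.17 ± 0.494 to 13.1 ± 1.37 RPKM) and PDGFRA (0.447 ± 0.127 to 3.25 ± 1.78 RPKM) rose, KDR from a level that hESC already held. Members of later stages were low: NKX2-5 averaged 0.437 RPKM, HAND2 0.897 RPKM, TBX5 0.653 RPKM and WT1 0.347 RPKM in mesendoderm, and their means over the 9 libraries lay under the minimum. Without the minimum 27 of the 35 measured members rose and 0 fell, where 12.1% and 14.5% of all 21417 genes did, and over all alternative settings 15 to 27 rose.

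Of paraxial and intermediate mesoderm genes some rose, early members among them. Of 21 measured genes 11 passed the minimum, 6 rose and 1 fell, with the same counts over all 21 without the minimum. Besides MSGN1 and LHX1, TBX6 (0.883 ± 0.203 to 5.43 ± 2.27 RPKM), the Notch ligand DLL3 (1.45 ± 0.552 to 11.6 ± 6.03 RPKM) and FOXC1 (0.0467 ± 0.0231 to 3.06 ± 1.65 RPKM) rose. PAX3 was at 0.0633 ± 0.0513 RPKM in hESC and 0.12 ± 0.0693 RPKM in mesendoderm and PAX2 at 0.11 ± 0.115 RPKM in hESC and 0.21 ± 0.125 RPKM in mesendoderm, which is at or near the floor of 3 reads.

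Amnion genes rose as well. Of 32 measured, 28 passed the minimum, 26 rose and 0 fell (median 3.43), and their summed level went from 33.1 to 41.2 RPKM in hESC to 634 to 1051 RPKM in mesendoderm. In neuroectoderm the sum was 266 to 339 RPKM, so it lay above hESC there too. Of the 14 tested members that stand in no other fate list, 12 rose. GABRP, a GABA receptor subunit of amnion, was at 0.75, 0.77 and 0.81 RPKM in hESC and 47.05, 24.3 and 30.9 RPKM in mesendoderm (4.25 ± 0.20, adjusted p = 9.13e-07). TFAP2A, a factor of non-neural ectoderm, was at 0.16, 0.13 and 0.03 RPKM in hESC and 14.8, 13.9 and 15.5 RPKM in mesendoderm (3.83 ± 0.12, adjusted p = 1.51e-07). ISL1 was at 0, 0.11 and 0.08 RPKM in hESC and 14.2, 8.62 and 12.9 RPKM in mesendoderm and VTCN1, an immune checkpoint protein of the B7 family, at 0.13, 0.25 and 0.09 RPKM in hESC and 10.3, 4.43 and 7.02 RPKM in mesendoderm. None of these 4 genes overlapped between the groups, which held for 54.7% of all tested genes. IGFBP3, which binds insulin-like growth factors (3.67 ± 0.442 to 166 ± 51.3 RPKM), the BMP pseudoreceptor BAMBI (4.69 ± 0.252 to 129 ± 33.5 RPKM), the tight junction gene CLDN10 (3.94 ± 0.678 to 52.7 ± 11.1 RPKM), WNT6 (0.0533 ± 0.0231 to 10.4 ± 0.678 RPKM) and the matrix protein TNC (0.807 ± 0.108 to 24.9 ± 9.18 RPKM) rose as well. MUC16 averaged 0.02 RPKM and ITGB6 0.95 RPKM in mesendoderm, with means over the 9 libraries under the minimum. Without the minimum 28 of the 32 measured amnion members rose.

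Trophoblast genes split into some that rose, early factors among them, and others that stayed low, most of the placental genes named here among them. Of 49 measured, 22 passed the minimum, 18 rose and 1 fell (median 1.45), and 27 lay under it, so the share that rose is not one of all members. GATA3 (11.5, 8.78 and 11.3 RPKM in mesendoderm, 3.42 ± 0.11, adjusted p = 1.32e-07), GATA2 (9.23, 7.17 and 9.8 RPKM, 3.16 ± 0.11, adjusted p = 2.03e-07) and TFAP2C (18.8, 19.1 and 20.4 RPKM, 3.33 ± 0.16, adjusted p = 1.03e-06) rose, all of which stand in the amnion list too. Of the 15 tested members in no other fate list 11 rose and 1 fell, and without the minimum 23 of the 49 measured rose and 1 fell. TP63, the p53 relative of basal epithelia, was at 0.04, 0.06 and 0.07 RPKM in hESC and 5.34, 3.03 and 4.64 RPKM in mesendoderm and overlaps with the surface ectoderm list. KRT7 (5.91 ± 1.5 to 26.3 ± 2.79 RPKM), VGLL1 (0.05 ± 0.0624 to 1.83 ± 0.203 RPKM), PGF, a placental growth factor (0.873 ± 0.22 to 4.54 ± 1.97 RPKM), and PEG10, an imprinted gene derived from a retrotransposon (30.1 ± 1.61 to 83.95 ± 5.35 RPKM), rose. Genes of the mature placenta did not follow. The hormone subunit CGA was at 0.14, 0.38 and 0.12 RPKM in hESC and 0.02, 0.06 and 0.05 RPKM in mesendoderm, GCM1, which drives syncytium formation, at 0.07, 0.15 and 0.08 RPKM in hESC and 0.18, 0.08 and 0.24 RPKM in mesendoderm, and the fusion protein ERVFRD-1 at 0.02, 0.03 and 0 RPKM in hESC and 0.01, 0.01 and 0.02 RPKM in mesendoderm. CYP19A1, which makes oestrogens, averaged 0.163 RPKM and HSD3B1 0.0767 RPKM in mesendoderm. ELF5, which is not a gene of the mature placenta, was low as well, at 0.247 RPKM in mesendoderm. SDC1, a surface proteoglycan of the syncytium that hESC also hold, fell from 20.6 ± 1.71 to 10.6 ± 1.401 RPKM.

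**Figure D2:**
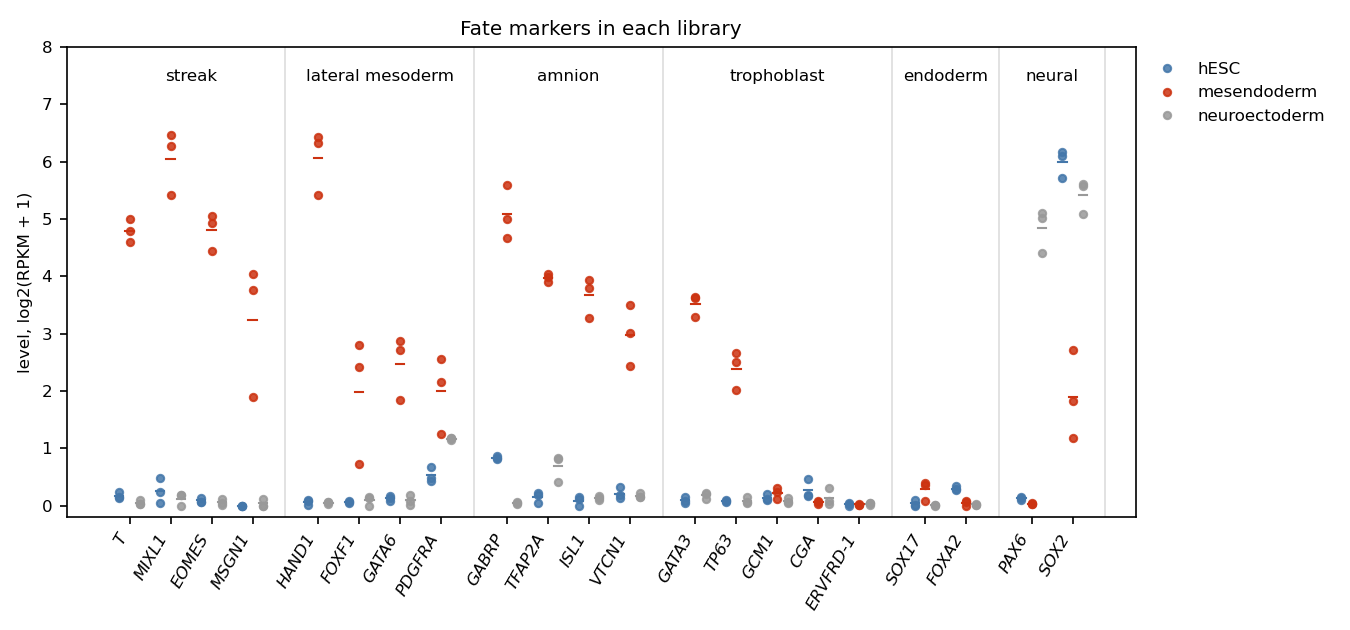
Level of fate markers in each library as log2(RPKM + 1), with 1 point per library and a bar at the mean of each group of 3. T, MIXL1, EOMES, HAND1, GABRP and GATA3 lie above both other groups in every mesendoderm library, while GCM1, CGA, ERVFRD-1, SOX17, FOXA2 and PAX6 lie near 0 there.

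Endoderm genes were split, and factors that define endoderm stayed near the floor. Of 30 measured genes 17 passed the minimum, 10 rose and 2 fell, and 4 of the 11 in no other fate list rose. CER1, secreted by anterior endoderm and the streak, was at 0.28, 0.75 and 0.43 RPKM in hESC and 44.6, 61.99 and 70.9 RPKM in mesendoderm. SOX17, which defines definitive endoderm, was at 0.01, 0.07 and 0 RPKM in hESC and 0.28, 0.06 and 0.32 RPKM in mesendoderm. FOXA2 was at 0.26, 0.22 and 0.2 RPKM in hESC and 0, 0.06 and 0.05 RPKM in mesendoderm. CXCR4, a surface marker of endoderm, was at 0.223 ± 0.11 RPKM in hESC and 0.783 ± 0.455 RPKM in mesendoderm (0.51 ± 0.27, adjusted p = 0.171) and did not pass, although it did with a pseudocount of 0.1 RPKM and without neuroectoderm replicate 1. Without the minimum 12 of the 30 measured endoderm members rose and 6 fell. SOX17 and FOXA2 lay under the minimum in the mean over 9 libraries.

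Surface ectoderm and neural genes changed in opposite directions. Of 28 measured surface ectoderm genes 18 passed the minimum, 15 rose and 0 fell, and the same counts were found over the 28 without the minimum. The epithelial factors GRHL3 (0.703 ± 0.255 to 11.4 ± 0.855 RPKM), GRHL1 (0.967 ± 0.0777 to 7.13 ± 1.79 RPKM) and GRHL2 (10.8 ± 0.702 to 25.7 ± 1.56 RPKM), DLX5 (0.04 ± 0.04 to 10.1 ± 0.907 RPKM), DLX3 and DLX6 rose with the epithelial checkpoint protein SFN (1.18 ± 0.501 to 7.797 ± 1.805 RPKM). Keratins of stratified epidermis did not: KRT5 averaged 0.07 RPKM and KRT14 0.0633 RPKM. Of 23 tested neural genes 0 rose and 12 fell (11 of the 30 measured without the minimum), among them OTX2 (36.7 ± 3.37 to 6.54 ± 0.501 RPKM), ZIC2 (47.1 ± 7.87 to 15.7 ± 8.01 RPKM), ZIC5 and POU3F1 (8.38 ± 1.85 to 1.27 ± 0.277 RPKM), all of which pluripotent cells express. PAX6 was at 0.0933 ± 0.0208 RPKM in hESC and 0.0233 ± 0.00577 RPKM in mesendoderm. Of 19 neural crest genes 8 rose and 3 fell. The rises included MSX1, TFAP2A, DLX5 and SNAI2, which other lists share, and the falls FOXD3 (5.32 ± 1.37 to 0.883 ± 0.698 RPKM), RET and SOX8.

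Blood vessel, muscle and germ cell genes gave mixed counts. Of 12 tested endothelium and blood genes 3 rose (KDR, SOX7 and RUNX1) and 4 fell (TEK, FLT1, FLT4 and TIE1). PECAM1 averaged 0.0133 RPKM, CDH5 0.07 RPKM and TAL1 0.02 RPKM in mesendoderm, so their defining markers were at or near the floor. Of 20 tested muscle genes 11 rose and 3 fell. Against neuroectoderm 5 of the 20 were higher in mesendoderm and 6 lower, near the 24.1% and 24.0% of all genes. The embryonic actin ACTC1 (4.03 ± 0.469 to 42.6 ± 11.4 RPKM), the atrial light chain MYL7 (1.41 ± 0.354 to 16.9 ± 5.88 RPKM), MYL4 and NPPB rose, as did TAGLN (61.2 ± 7.56 to 219 ± 15.9 RPKM). TNNT2, the heart troponin, fell from 3.65 ± 0.715 to 1.06 ± 0.396 RPKM, and MYH6 averaged 0.31 RPKM. Of 9 tested germ cell genes 3 rose and 4 fell, with PRDM14 (25.1 ± 1.62 to 2.8 ± 1.35 RPKM) lower and NANOS3 at 0.443 RPKM in mesendoderm, under the minimum. Fibroblast genes LUM (0.0433 ± 0.0208 to 9.03 ± 4.95 RPKM) and COL3A1 (0.17 ± 0.0721 to 8.42 ± 4.68 RPKM) rose, while DCN averaged 0.4 RPKM and FAP 0.11 RPKM.

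The 3 mesendoderm libraries differed among themselves. Of the 2457 genes that rose, replicate 2 was the lowest of the 3 for 1459, replicate 1 for 657 and replicate 3 for 341. Among lateral mesoderm genes that rose replicate 2 was lowest for 19 of 22, among amnion genes for 22 of 26 and among trophoblast genes for 16 of 18. Among streak genes it was lowest for 16 of 29 and replicate 1 for the other 13. The genes next given were chosen after their values were seen. BMP4 was at 143, 51.5 and 104 RPKM in replicates 1, 2 and 3, CDX2 at 19.7, 6.13 and 14.9 RPKM and APLNR at 166, 40.1 and 131 RPKM, with replicate 2 lowest in each. NODAL ran the other way, at 22.4, 72.96 and 38.8 RPKM, and so did NANOG, at 7.68, 18.4 and 10.6 RPKM, MIXL1 and EOMES. No test was made of this spread. Replicate 1 is also the library that stood apart on the third component, and the part of that in the spread was not tested.

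**Figure D3:**
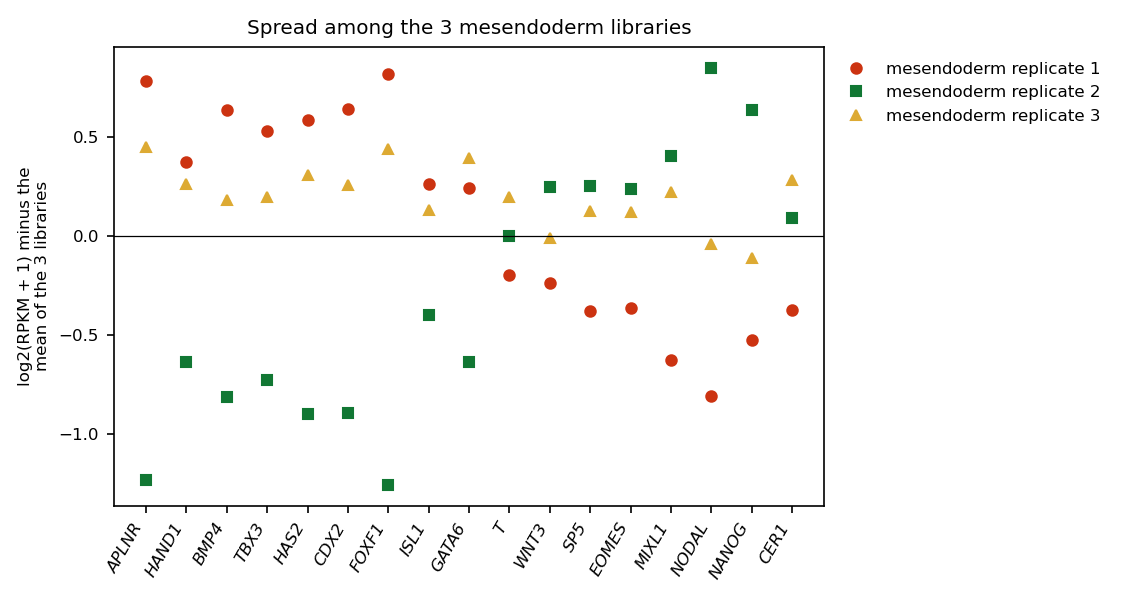
Deviation of each mesendoderm library from the mean of the 3, in log2(RPKM + 1), for 17 genes chosen after their values were seen. Replicate 2 is lowest for APLNR, HAND1, BMP4, TBX3, HAS2, CDX2, FOXF1, ISL1 and GATA6 and highest for NODAL, NANOG, MIXL1, EOMES, SP5 and WNT3.

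Pluripotency genes fell only in part. Of 45 measured genes 40 passed the minimum, 23 fell and 6 rose (median -0.90). The factors PRDM14 and SOX2, the kinase LCK (30.9 ± 5.65 to 4.41 ± 1.97 RPKM), the RNA polymerase III subunit POLR3G (27.7 ± 2.37 to 3.603 ± 1.21 RPKM) and the telomere protein TERF1 (73.5 ± 2.84 to 11.3 ± 3.43 RPKM) fell furthest besides IDO1 and USP44. The DNA methyltransferase DNMT3B fell from 203 ± 14.4 to 66.97 ± 12.7 RPKM, the Nodal co-receptor TDGF1 from 56.3 ± 4.26 to 23.7 ± 10.1 RPKM and the RNA-binding protein LIN28A from 307 ± 31.4 to 174 ± 2.06 RPKM. NANOG, a core factor, was at 22.2, 20.7 and 23.2 RPKM in hESC and 7.68, 18.4 and 10.6 RPKM in mesendoderm (-0.88 ± 0.24, adjusted p = 0.0213), and its call was lost without hESC replicate 1 or 3 or mesendoderm replicate 1 or 3 (adjusted p up to 0.0742). ZFP42 was at 80.4, 85.3 and 85.4 RPKM in hESC and 91.8, 75.4 and 80.6 RPKM in mesendoderm (-0.023 ± 0.14, adjusted p = 0.918), LIN28B at 21.9 ± 3.08 RPKM in hESC and 20.2 ± 2.81 RPKM in mesendoderm and PODXL at 165 ± 7.297 RPKM in hESC and 193 ± 20.3 RPKM in mesendoderm. These 3 did not pass the test. Against neuroectoderm 25 of the 40 tested pluripotency genes were higher in mesendoderm and 5 lower, where 24.1% and 24.0% of all genes were. NANOG was at 0.127 ± 0.0503 RPKM and ZFP42 at 19.3 ± 2.49 RPKM in neuroectoderm (differences 3.47 ± 0.24, adjusted p = 4.52e-06, and 2.05 ± 0.14, adjusted p = 3.20e-06).

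BMP signalling genes rose among ligands, receptors, signal carriers, targets and inhibitors. Of 54 measured genes 43 passed the minimum, 32 rose and 2 fell (median 1.26). Among ligands BMP4 was at 0.73, 1.42 and 0.92 RPKM in hESC and 143, 51.5 and 104 RPKM in mesendoderm (5.53 ± 0.32, adjusted p = 3.33e-06), BMP2 went from 2.11 ± 0.205 to 10.05 ± 3.896 RPKM, BMP7 from 1.81 ± 0.325 to 8.49 ± 0.74 RPKM and GDF6 from 0.0667 ± 0.0289 to 1.88 ± 0.618 RPKM. The receptors BMPR1A (18.8 ± 2.06 to 37.7 ± 2.66 RPKM), BMPR2 (2.697 ± 0.254 to 9.42 ± 1.29 RPKM) and ACVR1 rose, with the signal carriers SMAD1 (6.54 ± 0.236 to 11.7 ± 0.365 RPKM) and SMAD9 (0.327 ± 0.0764 to 2.31 ± 0.574 RPKM). Among direct targets ID1 was at 27.3, 13.3 and 24 RPKM in hESC and 105, 198 and 169 RPKM in mesendoderm, and ID2 (8.49 ± 2.69 to 61.8 ± 2.11 RPKM), ID3 (59.5 ± 6.22 to 145 ± 30.5 RPKM) and ID4 (1.57 ± 0.0917 to 15.2 ± 1.81 RPKM) rose with it. The homeobox targets MSX2 (0.08 ± 0.0624 to 36.3 ± 4.095 RPKM) and MSX1 (0.0833 ± 0.0115 to 23.5 ± 14.2 RPKM) came from near the floor. The feedback inhibitors SMAD6 (2.82 ± 0.17, adjusted p = 3.33e-06), SMAD7 (8.33 ± 0.584 to 27.9 ± 1.19 RPKM), BAMBI and NOG (0.09 ± 0.0917 to 3.26 ± 1.34 RPKM) and the ligand-binding FST (4.01 ± 0.364 to 36.3 ± 7.19 RPKM) and BMPER (0.16 ± 0.0361 to 4.89 ± 3.92 RPKM) rose too. RGMA, a BMP co-receptor, and CHRDL1 fell.

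SMAD6 is an inhibitor that the pathway induces in its own feedback. Of 70 BMP-list promoters with a RefSeq entry it alone held the string GTCTAGAC, the palindrome that SMAD proteins were first shown to bind, which was found in 0.182% of all promoters, in 0 of 24 streak-list and in 0 of 57 WNT-list promoters. The shorter string GGCGCC, part of GC-rich elements that SMAD proteins are known to bind, was in 17 of 70 BMP-list promoters (24.3%), 17 of 57 WNT-list promoters (29.8%) and 1 of 24 streak-list promoters, against 16.4% of all. Its window is shown with that match in capitals, in the same build and direction as above.
SMAD6, chr15:66701986-66702235, plus strand: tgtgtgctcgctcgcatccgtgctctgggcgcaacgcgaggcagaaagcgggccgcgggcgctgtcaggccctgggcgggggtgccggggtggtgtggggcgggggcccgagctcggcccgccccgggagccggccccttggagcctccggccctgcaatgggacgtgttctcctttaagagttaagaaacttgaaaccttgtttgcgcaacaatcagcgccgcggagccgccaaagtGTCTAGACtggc
SMAD6 was at 0.85, 0.75 and 0.62 RPKM in hESC and 10.2, 10.9 and 12.9 RPKM in mesendoderm, with every mesendoderm library above every hESC library.

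Nodal and activin genes moved unevenly. NODAL was at 1.11, 1.08 and 1.18 RPKM in hESC and 22.4, 72.96 and 38.8 RPKM in mesendoderm (4.27 ± 0.33, adjusted p = 1.75e-05), and FURIN, which cleaves its precursor, went from 6.97 ± 1.19 to 40.98 ± 3.74 RPKM. TGFB1 (1.68 ± 0.196 to 15.97 ± 4.22 RPKM) and GDF15 (0.357 ± 0.341 to 3.49 ± 0.3 RPKM) rose. The Nodal inhibitor LEFTY1, usually a target of the pathway, was at 2.28, 1.22 and 2.08 RPKM in hESC and 0.3, 1.3 and 0.29 RPKM in mesendoderm (-0.85 ± 0.23, adjusted p = 0.0204), a call lost without the same 4 libraries in turn (adjusted p up to 0.0796), and LEFTY2 averaged 0.56 RPKM in mesendoderm, under the minimum over 9 libraries. The receptors TGFBR2 and ACVR1B did not pass. In all 11 of 26 tested genes rose and 4 fell.

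WNT genes rose more often than they fell against hESC, but not against neuroectoderm. Of 67 measured, 55 passed the minimum, 27 rose and 12 fell. Against neuroectoderm 17 of the 55 were higher in mesendoderm and 27 lower, where 24.1% and 24.0% of all genes were. The summed level of the list was 534 to 562 RPKM in hESC, 575 to 658 RPKM in mesendoderm and 701 to 990 RPKM in neuroectoderm. The ligands WNT5B (0.5 ± 0.0624 to 38.9 ± 12.98 RPKM), WNT8A (0.153 ± 0.127 to 19.4 ± 5.01 RPKM), WNT3 (0.3 ± 0.0624 to 16.99 ± 3.02 RPKM), WNT5A (0.633 ± 0.0929 to 20.3 ± 11.5 RPKM), WNT6 and WNT9B rose. WNT3 was at 0.23, 0.32 and 0.35 RPKM in hESC and 14.1, 20.1 and 16.7 RPKM in mesendoderm (3.78 ± 0.13, adjusted p = 2.03e-07). Targets and feedback genes rose with them: LEF1 (0.273 ± 0.0208 to 9.27 ± 4.49 RPKM), NOTUM (0.123 ± 0.114 to 3.603 ± 0.836 RPKM), RNF43 (0.277 ± 0.00577 to 3.56 ± 0.532 RPKM), LGR5 (0.103 ± 0.0416 to 3.52 ± 2.08 RPKM), DKK1 (0.0833 ± 0.0777 to 5.68 ± 0.916 RPKM) and NKD1. The falls included SFRP1, SFRP2 (71.1 ± 7.91 to 34.7 ± 12.9 RPKM) and the repressor TCF7L1 (28.4 ± 4.93 to 5.38 ± 0.794 RPKM). The receptors FZD7 (64.8 ± 5.97 to 15.8 ± 1.598 RPKM) and ROR1 (20.4 ± 1.596 to 6.47 ± 0.533 RPKM) fell, while FZD10, FZD1, FZD4, FZD6 and ROR2 (1.21 ± 0.0781 to 13.3 ± 2.98 RPKM) rose. WLS was at 198 ± 54.7 RPKM in neuroectoderm, and its difference from mesendoderm (-0.070 ± 0.22, adjusted p = 0.807) did not pass, although it did without the 3 libraries that stood apart.

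FGF, Notch, hedgehog and retinoic acid genes moved in both directions. Of 30 FGF and ERK genes 12 rose and 10 fell. FGF17 (0.193 ± 0.0987 to 3.29 ± 0.506 RPKM) and the feedback inhibitor SPRY2 (10.8 ± 0.603 to 32.6 ± 4.403 RPKM) rose, and the ERK phosphatase DUSP6 (40.5 ± 2.96 to 23.7 ± 5.19 RPKM), FGFR1 (98.3 ± 7.27 to 61.01 ± 0.212 RPKM) and FGFBP3 (42.6 ± 6.82 to 4.33 ± 1.83 RPKM) fell. In Notch HES1 (7.75 ± 1.64 to 25.1 ± 1.43 RPKM) and HEY1 (0.307 ± 0.0208 to 2.09 ± 0.687 RPKM) rose and HES3 and DTX1 fell, 6 up and 6 down of 22. The count for Notch pathway ran between 3 lower without hESC replicate 1 or mesendoderm replicate 3 and 7 without the 3 libraries that stood apart. In hedgehog the co-receptors GAS1 (1.33 ± 0.104 to 9.65 ± 1.86 RPKM), BOC and CDON rose and the factors GLI1 (6.78 ± 0.791 to 2.18 ± 0.396 RPKM) and GLI2 (9.96 ± 0.994 to 3.08 ± 0.108 RPKM) fell, while SHH averaged 0.06 RPKM in mesendoderm. The retinoic acid degrading enzyme CYP26A1 (2.55 ± 0.471 to 7.77 ± 1.56 RPKM) rose and LRAT, which stores retinol, fell from 9.23 ± 0.387 to 0.567 ± 0.479 RPKM. HOX genes that rose included HOXB6 (0.0533 ± 0.0416 to 6.89 ± 5.04 RPKM), HOXB2 (0.0267 ± 0.0379 to 3.203 ± 1.76 RPKM) and HOXB9 (0.02 ± 0.02 to 1.74 ± 1.57 RPKM, a call lost without any single hESC library, without mesendoderm replicate 1 or 3 and without the 3 libraries that stood apart, with adjusted p up to 0.0853). The HOX cofactors MEIS1, MEIS2 (0.277 ± 0.211 to 2.55 ± 1.58 RPKM) and MEIS3 rose too.

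Mesenchymal and epithelial genes both rose more often than they fell. Of 25 tested mesenchymal genes 17 rose and 0 fell (median 1.34). Against neuroectoderm 12 of the 25 were higher in mesendoderm and 8 lower, where 24.1% and 24.0% of all genes were. The summed level of the list was 338 to 426 RPKM in hESC, 1702 to 2105 RPKM in mesendoderm and 899 to 1162 RPKM in neuroectoderm. The repressors of E-cadherin SNAI1 (3.3 ± 0.382 to 13.7 ± 6.31 RPKM), SNAI2 (0.157 ± 0.0513 to 5.81 ± 4.66 RPKM) and TWIST1 (0.0333 ± 0.0351 to 1.5 ± 0.42 RPKM) rose, while ZEB1 was at 0.247 ± 0.0586 RPKM in hESC and 0.48 ± 0.32 RPKM in mesendoderm (0.23 ± 0.15, adjusted p = 0.289) and ZEB2 at 0.287 ± 0.0874 RPKM in hESC and 1.27 ± 0.879 RPKM in mesendoderm (0.73 ± 0.27, adjusted p = 0.0617). ZEB2 was called higher without mesendoderm replicate 2 (adjusted p = 2.15e-04) and after rescaling without small RNA (adjusted p = 0.0456). Vimentin (VIM) was at 70.7, 56.9 and 73.2 RPKM in hESC and 127, 26.9 and 90.3 RPKM in mesendoderm (0.027 ± 0.48, adjusted p = 0.973) and did not pass, and its sign turned with some libraries left out. Of 43 tested epithelial genes 24 rose and 5 fell (median 0.53). The count for epithelial junctions and keratins ran between 1 lower without mesendoderm replicate 1 or 3 and 5 without neuroectoderm replicate 1 or 2 or the 3 libraries that stood apart. E-cadherin (CDH1) was at 52, 52.2 and 59.8 RPKM in hESC and 109, 90.99 and 96.5 RPKM in mesendoderm (0.84 ± 0.12, adjusted p = 6.97e-04), higher in each mesendoderm library than in any hESC library, and N-cadherin (CDH2) rose from 10.4 ± 0.42 to 17.8 ± 1.95 RPKM. The simple keratins KRT8 (122 ± 24.7 to 919 ± 199.95 RPKM), KRT18 (111 ± 24.1 to 459.6 ± 21.2 RPKM) and KRT19 (37.4 ± 7.16 to 219.6 ± 63.1 RPKM), the desmosome genes DSP (14.1 ± 0.76 to 58.1 ± 9.52 RPKM) and PKP2, the adhesion molecule EPCAM (29.1 ± 1.204 to 69.1 ± 5.45 RPKM) and the tight junction gene CLDN4 (5.11 ± 0.733 to 43.5 ± 5.83 RPKM) rose. In neuroectoderm CDH1 was at 0.27 ± 0.121 RPKM and KRT8 at 83.4 ± 18.95 RPKM (differences 6.30 ± 0.12, adjusted p = 4.66e-09, and 3.45 ± 0.26, adjusted p = 6.65e-06).

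**Figure D4:**
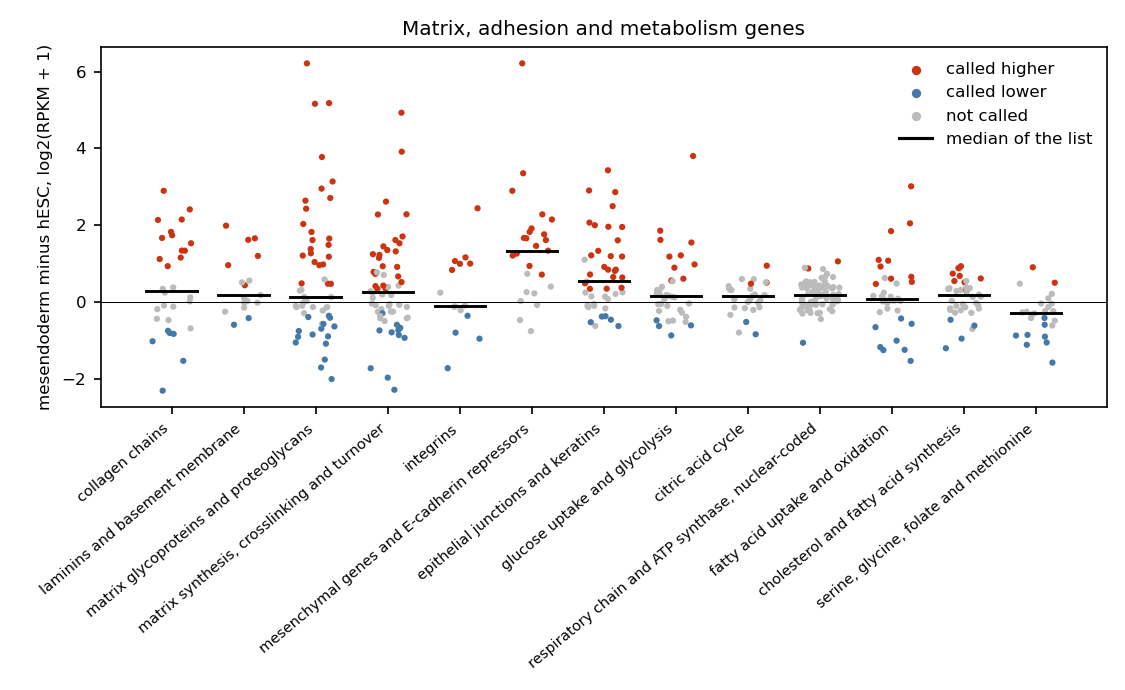
Change of each tested member of 13 lists (mesendoderm minus hESC, log2(RPKM + 1)), 1 point per gene, red where called higher, blue where called lower and grey where not called, with the list median as a bar. The mesenchymal and epithelial medians lie above 0, and most points of the respiratory chain are grey and close to 0.

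Matrix genes rose and fell within each class. Of 30 tested collagen chains 13 rose and 6 fell. Fibril chains COL3A1, COL5A2 (7.07 ± 0.548 to 36.2 ± 12.8 RPKM), COL5A1 (3.62 ± 0.38 to 14.3 ± 5.05 RPKM), COL11A1 and COL1A2 (28.9 ± 4.52 to 74.1 ± 7.04 RPKM) and the microfibril chains COL6A1 (28.7 ± 5.77 to 103 ± 6.62 RPKM) and COL6A2 (9.68 ± 3.33 to 29.1 ± 5.403 RPKM) rose. The cartilage chains COL2A1 (6.74 ± 1.41 to 1.66 ± 0.362 RPKM) and COL9A1 (8.33 ± 0.455 to 0.883 ± 0.11 RPKM) and the basement membrane chain COL4A1 (33.9 ± 3.04 to 19.03 ± 2.33 RPKM) fell. COL1A1, the partner of COL1A2, was at 5.103 ± 1.17 RPKM in hESC and 3.403 ± 0.849 RPKM in mesendoderm (-0.47 ± 0.19, adjusted p = 0.0814) and did not pass, although it was called lower with small RNA left out, without hESC replicate 2 and without the 3 libraries that stood apart (adjusted p from 0.00321 to 0.0323). Of 17 laminin and basement membrane genes 6 rose, led by LAMB1 (8.48 ± 0.806 to 36.7 ± 5.09 RPKM), LAMC1 (34.2 ± 2.85 to 79.97 ± 8.24 RPKM) and FREM2 (11.6 ± 1.22 to 37.9 ± 4.97 RPKM), and 2 fell.

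Of 55 glycoproteins and proteoglycans 24 rose and 15 fell. FN1 was at 13.8, 13.9 and 14.6 RPKM in hESC and 1158, 1049 and 1163 RPKM in mesendoderm, nearly even over the 3 libraries of each group. Periostin (POSTN) was at 0.26, 0.35 and 0.27 RPKM in hESC and 43.7, 42.3 and 52 RPKM in mesendoderm and HAPLN1, which links hyaluronan to proteoglycans, at 0.26, 0.28 and 0.18 RPKM in hESC and 73.7, 23.1 and 47.4 RPKM in mesendoderm. Both were lowest in replicate 2 among the mesendoderm libraries, as was HAS2, which makes hyaluronan. Fibrillin 2 (FBN2, 9.26 ± 0.527 to 79.1 ± 13.4 RPKM), osteopontin (SPP1, 8.37 ± 0.298 to 49.5 ± 2.67 RPKM), MFAP4 (1.57 ± 0.421 to 14.98 ± 2.06 RPKM) and the proteoglycan LUM rose, and HAPLN3 (19.8 ± 5.39 to 4.09 ± 0.771 RPKM), THBS2 (6.83 ± 0.509 to 1.56 ± 1.12 RPKM) and THBS4 (7.35 ± 0.541 to 1.96 ± 0.263 RPKM) fell. Of 60 enzymes that make, cross-link or cut matrix 25 rose and 11 fell. The count for matrix synthesis, crosslinking and turnover ran between 8 lower without hESC replicate 3 or mesendoderm replicate 3 and 17 without the 3 libraries that stood apart. The protease inhibitor SERPINE2 (9.55 ± 0.63 to 158 ± 13.96 RPKM), the gelatinase MMP2 (14.4 ± 1.26 to 46.5 ± 7.19 RPKM) and its activator MMP14 (18.2 ± 1.14 to 54.9 ± 9.08 RPKM) rose with the collagen lysyl hydroxylase PLOD2 (2.59 ± 0.565 to 16.7 ± 4.47 RPKM). MMP24 (8.37 ± 0.48 to 1.42 ± 0.438 RPKM) and MMP25 (5.03 ± 1.01 to 0.81 ± 0.108 RPKM) fell.

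Integrins, the receptors for matrix, moved in both directions. ITGA5, the fibronectin receptor chain, was at 8.6, 6.45 and 8.27 RPKM in hESC and 67.99, 26.4 and 55.1 RPKM in mesendoderm (2.44 ± 0.33, adjusted p = 4.54e-04), and its partner ITGB1 (52.9 ± 10.3 to 111 ± 15.04 RPKM), ITGAV (10.4 ± 1.57 to 24.6 ± 4.24 RPKM) and ITGB5 (63.02 ± 4.95 to 127 ± 12.4 RPKM) rose. ITGA6, a laminin receptor chain, fell from 37.1 ± 1.85 to 10.8 ± 2.82 RPKM. In all 6 of 15 integrins rose and 4 fell. Of 28 measured genes of the annexin and S100 list 12 lay under the minimum, so the share that rose is not one of all members. Of the 16 tested 11 rose, led by the large scaffold AHNAK (1.22 ± 0.131 to 72.3 ± 14.99 RPKM) and by ANXA1 (0.277 ± 0.0802 to 29.03 ± 7.73 RPKM) and ANXA2 (16.3 ± 4.03 to 173 ± 11.7 RPKM). Among actin regulators and YAP targets 20 of 42 rose and 3 fell, including ANKRD1 (0.143 ± 0.0451 to 38.3 ± 11.9 RPKM), filamin C (FLNC, 1.37 ± 0.295 to 43.9 ± 8.91 RPKM), AMOTL2 (15.5 ± 1.3 to 83.8 ± 5.12 RPKM) and the nuclear lamin LMNA (12.8 ± 1.75 to 45.2 ± 7.04 RPKM). YAP1 itself was at 26.8 ± 1.73 RPKM in hESC and 34.1 ± 4.82 RPKM in mesendoderm (0.33 ± 0.12, adjusted p = 0.0726) and did not pass, although it did without neuroectoderm replicate 1 or mesendoderm replicate 2.

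Secreted factors beyond BMP, WNT and Nodal were divided. Of 99 measured growth factors, peptides and chemokines 61 passed the minimum, 25 rose and 20 fell. Neurotensin (NTS) was at 3.61, 3.83 and 2.94 RPKM in hESC and 341, 259.5 and 332 RPKM in mesendoderm (6.12 ± 0.15, adjusted p = 2.97e-08), and galanin (GAL), a peptide that hESC already make, went from 12.1 ± 5.17 to 59.1 ± 14.9 RPKM. The binding proteins IGFBP3 and IGFBP7 (0.167 ± 0.106 to 34.2 ± 5.63 RPKM) rose, and PDGFB (0.867 ± 0.259 to 3.98 ± 0.232 RPKM), EDN1 (0.203 ± 0.0351 to 2.8 ± 0.219 RPKM), ANGPT1 (0.313 ± 0.0404 to 2.82 ± 0.281 RPKM) and KITLG (0.973 ± 0.226 to 3.63 ± 0.298 RPKM) rose to low levels. Stanniocalcin (STC1, 14.9 ± 0.762 to 1.603 ± 0.631 RPKM), the chemokine CXCL5 (9.497 ± 0.725 to 0.733 ± 0.251 RPKM) and the granule proteins CHGA and SCG5 (14.5 ± 1.22 to 4.36 ± 0.675 RPKM) fell. Among guidance cues 14 of 35 rose and 10 fell, with EFNA1 (1.17 ± 0.295 to 26.8 ± 4.52 RPKM), SLIT2 (1.74 ± 0.0289 to 14.1 ± 2.65 RPKM), SEMA6A (45.2 ± 2.25 to 136 ± 7.38 RPKM) and SEMA3C (0.153 ± 0.0611 to 5.503 ± 1.02 RPKM) higher and SEMA5B (8.22 ± 1.34 to 2.23 ± 0.395 RPKM) lower. Of 55 surface receptors 25 rose and 12 fell. PLXNA2 (0.313 ± 0.0493 to 11.9 ± 5.32 RPKM), EDNRB (1.56 ± 0.221 to 14.9 ± 1.002 RPKM), EPHA2 (8.03 ± 1.57 to 31.3 ± 2.72 RPKM) and NRP1 (0.99 ± 0.131 to 8.97 ± 5.72 RPKM) rose, and ERBB2 (145 ± 16.9 to 32.5 ± 2.13 RPKM) and CD24 (340.04 ± 30.99 to 102 ± 1.26 RPKM) fell.

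Respiratory chain genes were called at a lower share than all genes, and glycolysis genes were not. Of 75 tested subunits of the respiratory chain and ATP synthase 2 rose and 1 fell, below the shares over all genes (13 and 4 without the 3 libraries that stood apart). Of 27 genes in the citric acid cycle list 3 rose and 2 fell (9 and 5 without those libraries). The largest changes were those of SUCLG1 (13.9 ± 1.03 to 27.8 ± 3.81 RPKM) and of the glutaminase GLS2 (4.16 ± 0.917 to 1.89 ± 0.59 RPKM), which is not an enzyme of the cycle itself. Of 36 glucose and glycolysis genes 10 rose and 4 fell. The count for glucose uptake and glycolysis ran between 6 higher without mesendoderm replicate 3 and 13 without neuroectoderm replicate 1 or the 3 libraries that stood apart, and between 2 lower without mesendoderm replicate 3 and 9 without the 3 libraries that stood apart. Changes lay at entry and exit, among other steps. The lactate exporter SLC16A3 was at 1.08, 0.67 and 0.78 RPKM in hESC and 29.3, 18.3 and 27.6 RPKM in mesendoderm (3.80 ± 0.19, adjusted p = 1.19e-06), the glucose carriers SLC2A3 (46.4 ± 3.29 to 171 ± 13.5 RPKM) and SLC2A1 (31.4 ± 3.32 to 74.1 ± 5.26 RPKM) and the kinase PDK1 (13.4 ± 0.0153 to 41.3 ± 2.26 RPKM), which slows pyruvate oxidation, rose, and hexokinase 2 (HK2, 16.1 ± 1.299 to 8.36 ± 0.409 RPKM) fell. GAPDH was at 1917 ± 648 RPKM in hESC and 1594 ± 107 RPKM in mesendoderm and LDHA at 139 ± 9.08 RPKM in hESC and 160.4 ± 24.5 RPKM in mesendoderm, and neither passed. Among hypoxia genes EPAS1 was at 0.33, 0.29 and 0.33 RPKM in hESC and 81.3, 43.9 and 63.5 RPKM in mesendoderm and CA12 (1.05 ± 0.07 to 10.5 ± 2.84 RPKM) and NDRG1 (0.513 ± 0.0777 to 4.2 ± 0.702 RPKM) rose. The list had 9 of 24 higher and 2 lower.

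Lipid, prostaglandin and 1-carbon genes held single large changes. Their counts are to be set against the 17.0% of all genes that rose and the 18.1% that fell. PPARG, the fat-sensing nuclear receptor, was at 0.09, 0.08 and 0.09 RPKM in hESC and 9.02, 5.88 and 8.77 RPKM in mesendoderm (3.01 ± 0.14, adjusted p = 8.82e-07). The fatty acid binding protein FABP5 (39.3 ± 10.6 to 162 ± 11.6 RPKM) and ACADL (0.11 ± 0.0173 to 3.003 ± 0.403 RPKM) rose. FABP7, FABP3 (4.93 ± 2.36 to 1.35 ± 0.353 RPKM) and CPT1C (19.7 ± 2.204 to 7.697 ± 0.452 RPKM) fell. Of 35 fatty acid uptake and oxidation genes 10 rose (28.6%) and 8 fell (22.9%). Of 39 sterol and fatty acid synthesis genes 8 rose (20.5%) and 4 fell (10.3%), near the share over all genes for rises and below it for falls. The count for cholesterol and fatty acid synthesis ran between 4 higher without hESC replicate 2 or mesendoderm replicate 3 and 13 without neuroectoderm replicate 1, and between 2 lower without hESC replicate 3 or mesendoderm replicate 2 and 7 without the 3 libraries that stood apart. Of 12 tested prostaglandin genes 4 rose (33.3%) and 2 fell (16.7%). HPGD was at 0.15, 0.21 and 0.12 RPKM in hESC and 53.96, 58.2 and 60.9 RPKM in mesendoderm (5.66 ± 0.084, adjusted p = 4.27e-09), and SLCO2A1, which imports its substrate, went from 0.17 ± 0.0361 to 9.33 ± 4.05 RPKM. Of 25 tested serine, glycine, folate and methionine genes 8 fell and 2 rose, with PSAT1 (87.8 ± 10.7 to 28.6 ± 0.901 RPKM), MTHFD2 (64.3 ± 12.4 to 28.8 ± 0.761 RPKM) and MAT2A (61.2 ± 4.84 to 29.02 ± 2.83 RPKM) lower. The count for serine, glycine, folate and methionine ran between 5 lower without mesendoderm replicate 3 and 13 without the 3 libraries that stood apart. The polyamine and creatine list had 9 of 19 lower, among them AMD1 (63.6 ± 6.89 to 36.3 ± 1.66 RPKM), ODC1 (50.3 ± 0.75 to 29.6 ± 1.67 RPKM) and the creatine carrier SLC6A8 (21.7 ± 3.17 to 7.58 ± 0.912 RPKM). The amino acid carriers SLC7A5 (33.5 ± 5.49 to 117 ± 4.51 RPKM) and SLC7A2 (3.997 ± 0.578 to 22.7 ± 4.91 RPKM) rose. The iron exporter SLC40A1 (0.0833 ± 0.0577 to 4.88 ± 0.809 RPKM) and NQO1 (20.5 ± 1.99 to 38.7 ± 0.304 RPKM) rose among redox genes, and HMOX1 (10.02 ± 1.35 to 4.72 ± 0.453 RPKM) fell.

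Cell cycle genes changed at about the share of all genes in the G1 list and at a lower share in the mitotic list. CDKN1A, the inhibitor p21, was at 2.72, 2.69 and 2.4 RPKM in hESC and 25.4, 24.6 and 30.3 RPKM in mesendoderm (2.94 ± 0.15, adjusted p = 1.69e-06), and cyclins CCND1 (25.2 ± 1.37 to 43.1 ± 5.11 RPKM) and CCND2 rose. Of 37 G1 and replication genes 5 rose and 8 fell, and of 27 mitotic genes 1 rose and 2 fell (4 and 3 without the 3 libraries that stood apart). The count for G1 regulators and DNA replication ran between 4 higher without hESC replicate 1 or 2 or mesendoderm replicate 1 or 2 or 3 and 8 without the 3 libraries that stood apart, and between 3 lower without hESC replicate 3 or mesendoderm replicate 3 and 12 without neuroectoderm replicate 1 or the 3 libraries that stood apart.

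Small noncoding RNA genes rose at a lower share than all genes. Of 735 tested small RNA genes 8.84% rose and 17.3% fell, against 17.0% and 18.1% over all genes, with a median of -0.42. MicroRNAs silence messages through bases 2 to 8 of the mature strand, the seed. The 366 tested miRNA genes outside the miR-302 and miR-371 clusters counted 13 higher and 105 lower (median -0.83). The count for other miRNA genes ran between 7 higher without hESC replicate 1 and 19 without the 3 libraries that stood apart, and between 57 lower without mesendoderm replicate 3 and 178 without neuroectoderm replicate 1. A total RNA library reads hairpin genes of very short length, at which levels can be very high, so levels are compared here only within a gene.

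MicroRNAs of pluripotent cells were grouped by their seeds, from RefSeq's mature sequences, with the seed in capitals. The first 4 share AAGUGCU and the last 4 the shifted AAAGUGC. They are shown because both families are known from pluripotent cells.
hsa-miR-302a-3p: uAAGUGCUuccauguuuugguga
hsa-miR-302d-3p: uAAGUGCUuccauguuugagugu
hsa-miR-373-3p: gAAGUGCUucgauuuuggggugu
hsa-miR-520c-3p: aAAGUGCUuccuuuuagagggu
hsa-miR-17-5p: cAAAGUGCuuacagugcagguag
hsa-miR-20b-5p: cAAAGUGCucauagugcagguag
hsa-miR-93-5p: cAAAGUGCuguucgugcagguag
hsa-miR-106a-5p: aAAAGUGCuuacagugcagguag
Of 8 tested hairpins with the seed AAGUGCU 6 fell (median -2.57), and of 8 with AAAGUGC 6 fell (median -2.64), where 100 of all 325 tested hairpins with a mature sequence did (median -0.90). The AAGUGCU count ran between 2 without hESC replicate 1 or mesendoderm replicate 1 or 3 and 8 without neuroectoderm replicate 1. The AAAGUGC count ran between 2 without hESC replicate 1 or 2 or any mesendoderm replicate and 8 without neuroectoderm replicate 1 or 2 or the 3 libraries that stood apart. Hairpins of other seeds were lower too, with 3 of 4 fallen for AGUGCAA (median -2.17), of which 0 fell without any single hESC library or mesendoderm replicate 1 or 2. MIR302D was at 1355, 2209 and 898 RPKM in hESC and 122, 149 and 155 RPKM in mesendoderm (-3.29 ± 0.92, adjusted p = 0.0225). MIR302A was at 502, 904 and 369 RPKM in hESC and 84.2, 94.7 and 116 RPKM in mesendoderm (-2.49 ± 0.84, adjusted p = 0.0483), and MIR302B at 1013, 1529.6 and 661 RPKM in hESC and 147, 169.7 and 164 RPKM in mesendoderm (-2.65 ± 0.96, adjusted p = 0.0601). For these 3 the groups did not overlap, yet the call of MIR302D was lost without hESC replicate 1 or 2 or any mesendoderm replicate (adjusted p up to 0.0742), and that of MIR302A in 12 of the alternatives, among them leaving out any hESC or mesendoderm library (adjusted p up to 0.142). MIR520C was at 14.4, 31.3 and 6.29 RPKM in hESC and 0.49, 0.31 and 0.57 RPKM in mesendoderm (-3.40 ± 0.55, adjusted p = 0.00141). MIR17 was at 125, 304 and 77.8 RPKM in hESC and 24.3, 20.1 and 22.1 RPKM in mesendoderm (-2.65 ± 0.98, adjusted p = 0.0653) and MIR20B at 137, 305 and 88.2 RPKM in hESC and 8.42, 15.8 and 19.6 RPKM in mesendoderm (-3.39 ± 1.04, adjusted p = 0.0321), a call lost without hESC replicate 1 or 2 or any mesendoderm replicate (adjusted p up to 0.104). MIR17 and MIR302B passed without neuroectoderm replicate 1 or 2. The neuroectoderm libraries of MIR302D ran from 93.5 to 2058 RPKM, with replicate 1 the highest, and this spread enters the shared error of the fit. The 3 miR-302 hairpins that fell, MIR302A, MIR302C and MIR302D, lie within LARP7, a gene that rose from 8.7 ± 1.18 to 14.3 ± 0.67 RPKM.

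**Figure D5:**
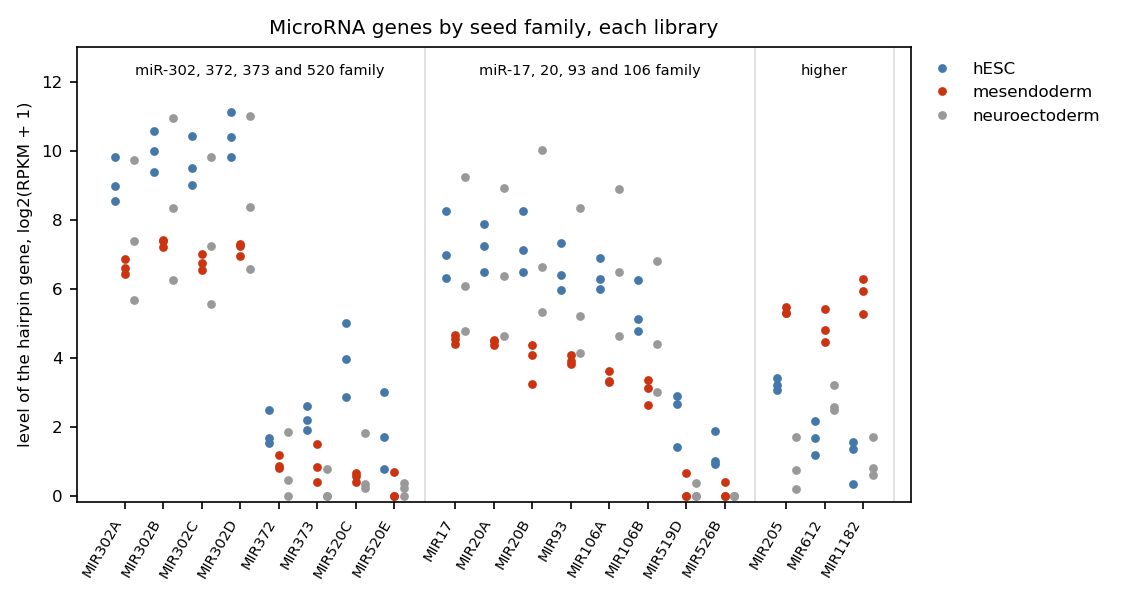
Level of miRNA hairpin genes in each library as log2(RPKM + 1), 1 point per library, grouped by seed family, with 3 hairpins that rose at the right. In both families the 3 mesendoderm libraries lie close together and below the hESC libraries for most hairpins, while neuroectoderm is spread widely.

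Several miRNA genes that rose lie within transcripts that rose. Of 10 higher miRNA genes with a measured spanning gene, 7 had one that rose. Of 61 lower miRNA genes 5 had a spanning gene that rose and 19 one that fell. Both the 61 and the 19 include MIR600HG, which is a host transcript and not a hairpin. Strand was not used in this pairing. MIR205 lies in MIR205HG, and its mature strand is shown with the seed in capitals as the clearest such pair.
hsa-miR-205-5p: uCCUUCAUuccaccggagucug
MIR205, known from epithelia, was at 8.28, 9.51 and 7.27 RPKM in hESC and 38.3, 38.4 and 43.5 RPKM in mesendoderm (2.14 ± 0.32, adjusted p = 8.66e-04), and MIR205HG at 1.68, 1.59 and 1.49 RPKM in hESC and 29.9, 28.3 and 29.2 RPKM in mesendoderm (3.54 ± 0.12, adjusted p = 2.00e-07). MIR612 lies within NEAT1 and went from 2.29 ± 1.09 to 29.8 ± 10.6 RPKM, and MIR1182 within FAM89A and went from 1.26 ± 0.892 to 57.9 ± 19.4 RPKM. Reads of a host transcript and of the hairpin inside it cannot be told apart in these values. MIR1247 went from 0.05 ± 0.0866 to 22.9 ± 4.84 RPKM, and lies next to DIO3, which rose as well.

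Among small nucleolar RNA genes that were called, rises outnumbered falls in both classes, while the class medians had opposite signs. The difference between the classes was not tested. Of 123 tested box H/ACA snoRNAs and scaRNAs, which guide pseudouridylation, 31 rose (25.2%) and 7 fell (5.69%), with a median of 0.31. Over all genes 17.0% rose and 18.1% fell. SNORA27 was at 893, 566 and 926 RPKM in hESC and 3976, 3119 and 4696 RPKM in mesendoderm (2.32 ± 0.33, adjusted p = 6.85e-04), and SNORA37 (72.05 ± 10.9 to 247 ± 25.5 RPKM) and SNORA84 (489 ± 39.5 to 1590.2 ± 103 RPKM) rose, while SNORA11C fell from 146 ± 16.7 to 22.3 ± 4.17 RPKM. The count for box H/ACA snoRNAs and scaRNAs ran between 19 higher without mesendoderm replicate 3 and 39 without neuroectoderm replicate 1, and between 2 lower without mesendoderm replicate 3 and 13 without neuroectoderm replicate 1. Of 219 box C/D snoRNAs, which guide methylation, 21 rose (9.59%) and 12 fell (5.48%), both below the shares over all genes. Their median was -0.24, against -0.017 over all genes. The count for box C/D snoRNAs ran between 17 higher without hESC replicate 3 and 36 without the 3 libraries that stood apart, and between 5 lower without mesendoderm replicate 1 and 35 without neuroectoderm replicate 1. The rises were led by SNORD115 copies such as SNORD115-33 (1.597 ± 0.994 to 14.7 ± 2.74 RPKM), whose near-identical sequences can share reads.

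Long noncoding RNA changed in both directions. NEAT1, the scaffold of paraspeckles, was at 1.25, 1.64 and 1.63 RPKM in hESC and 28.6, 19.7 and 26.9 RPKM in mesendoderm (3.37 ± 0.15, adjusted p = 6.33e-07), against 8.29 ± 0.613 RPKM in neuroectoderm. GATA6-AS1 went from 0.0233 ± 0.0252 to 2.98 ± 1.16 RPKM and GATA3-AS1 from 0.0733 ± 0.0153 to 2.37 ± 0.568 RPKM, as their partners GATA6 and GATA3 rose, and FEZF1-AS1 fell from 3.21 ± 0.357 to 0.0667 ± 0.0153 RPKM, as FEZF1 fell. Since the use of strand is not known, reads of these pairs cannot be told apart. HOTAIRM1, from the HOXA cluster, went from 0.0267 ± 0.0462 to 2.44 ± 1.55 RPKM, and LINC00152 from 0.177 ± 0.085 to 3.27 ± 1.001 RPKM. MIAT (18.8 ± 2.04 to 5.1 ± 0.45 RPKM), RMST (7.797 ± 0.814 to 2.16 ± 0.633 RPKM), the stem cell transcript LINC00678 (75.7 ± 10.6 to 31.5 ± 15.2 RPKM) and LINC00599 (13.1 ± 0.844 to 0.613 ± 0.147 RPKM) fell. Of 69 tested LINC transcripts 10 rose (14.5%) and 13 fell (18.8%), and of 175 named antisense transcripts 15 rose (8.57%) and 27 fell (15.4%). Over all genes 17.0% rose and 18.1% fell, so the LINC shares were near those and the antisense shares below them. The count for LINC transcripts ran between 5 higher without hESC replicate 3 and 12 without neuroectoderm replicate 1, and between 11 lower without hESC replicate 1 or 2 or mesendoderm replicate 2 or 3 and 20 without neuroectoderm replicate 1. The count for antisense transcripts named -AS ran between 9 higher without mesendoderm replicate 3 and 23 without the 3 libraries that stood apart, and between 17 lower without mesendoderm replicate 1 and 38 without neuroectoderm replicate 1. Of 16 snoRNA host genes 0 rose and 3 fell, with SNHG4 (27.9 ± 2.24 to 10.8 ± 1.05 RPKM) the largest change. H19 averaged 0.12 RPKM and MEG3 0.0667 RPKM in mesendoderm, both under the minimum, while the imprinted PLAGL1 (0.337 ± 0.0493 to 1.97 ± 0.863 RPKM) rose and GRB10 (27.9 ± 2.19 to 13.5 ± 0.255 RPKM) fell.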

How the data were processed

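Total RNA was extracted with the mirVana kit, treated with DNase, depleted of ribosomal RNA with RiboMinus and made into libraries with the Ion Total RNA-Seq Kit v2, per the labels' protocols. Reads were aligned with TopHat, TopHat2 2.0.13 and Bowtie2 to hg19, per the submitters' processing notes. The authors deposited 1 table of RPKM values with 38759 transcript rows. Neither the counting tool nor its use of strand is given in the sources used here. Per symbol the row with the highest mean of the 9 libraries was kept, which left 21417 symbols, 7922 of them with several rows. RPKM are not counts, so limma 3.58.1 under R 4.3.3 was run on log2(RPKM + 1) of all 9 libraries, with group as the only term and a trend of variance on level. It tested the 14473 genes that averaged 0.5 RPKM or more. Tests were two-sided, with a Benjamini-Hochberg adjusted p under 0.05 as the threshold. The fit was tested on simulated data. Small RNA and mRNA share 1 scaling, so a change in the share of one moves the RPKM of the other.

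Denominators were read from the step between low RPKM values, of which 96.5% to 99.1% were whole multiples within 0.1 of a read, and intervals and floors cover counting error only. Members and 58 gene lists were chosen with earlier results of these data known, and lists are described by counts and medians without a test. Genes named are the 15 largest rises and 15 largest falls with no overlap between the groups and at least 5 RPKM in the higher group (small RNA and LOC symbols left out), up to 6 members of each list in each direction, marked members whatever their value and up to 8 noncoding genes in each direction. Other genes named, such as BMP2, CDX2, MMP2 and KITLG, were chosen after their values were seen. Alternatives were other pseudocounts, filters, scalings, transcript rows and libraries. Promoters and mature miRNAs come from RefSeq (GRCh38.p14), matched by symbol, and no coordinate was converted between builds. The results of some genes are not reported here.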

Additional observations from a re-analysis of the deposited data

How the results depend on the processing

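Over the alternatives the count of genes called ran from 1720 to 3296 higher and from 1813 to 3515 lower, against 2457 and 2620, and stayed within 1.5 times of both. Leaving out single libraries gave 1827 to 3250 higher and 1813 to 3446 lower. The split moved most when small RNA was left out and the rest rescaled, from 48.4% of the calls higher to 38.2%. Replicate numbers did not pair the libraries (deviations of hESC and mesendoderm with the same number correlated at -0.485, -0.295 and 0.058), and with the replicate block 2100 genes were higher and 2124 lower, and MIR20B and MIR302A lost their calls. Of 298 named genes called, 292 kept their call and 6 lost it under at least 1 alternative. Of 2312 counts of list members, 2080 stayed within 1.5 times of the reported count. The change of VIM turned to -0.11 with small RNA left out and to -0.53 without the 3 libraries that stood apart, and ran from -0.42 to 0.68 with single libraries left out. Under the same omissions ZFP42 ran from -0.10 to 0.040 and WLS against neuroectoderm from -0.32 to 0.073. None of these 3 differences passed the test as reported, and the cause was not tested. With 3 libraries a side, 1 cell line and 1 time point, genes near 3 reads per library were not resolved.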
